A study of Saccharomyces cerevisiae with 13 samples.

Results

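The far ends of long yeast mRNAs were examined through ribosome footprints mapped beyond codon 1000. A footprint is the stretch of mRNA that a ribosome shields from RNase I, and its A-site is the codon being decoded, next to the P-site codon that holds the growing peptide. The members were the listed A-site positions at 3000 nt or more from the first base of the start codon, counted from 0, in the library made from transcripts bound by a pair of ribosomes, here called the two-ribosome control. They were 2062 of 75954 positions (2.71%) and held 3540 of 401686 footprints, or 0.881% (95% Wilson interval 0.853 to 0.911%), in 300 of 4886 genes. Of these, 18 positions with 23 footprints lay past the stop codon and 3 genes were members only through them, so that 2044 positions with 3517 footprints in 297 genes lay within coding sequences.

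Cells were grown at 30 °C in YPD, a rich medium, for the control (1 library), disome-seq, monosome-seq and mRNA-seq (2 biological replicates each), or in SC medium without histidine that contained 100 mM 3-AT, an inhibitor of histidine synthesis, for the last 3 assays (2 replicates each). Cycloheximide was added to the lysis buffer and not to the cultures. Disome-seq counted fragments of 55 to 65 nt, which a stack of collided ribosomes protects, and monosome-seq fragments of 20 to 30 nt, which 1 ribosome protects. By the labels the rich-medium cells were BY4742 (MATα his3Δ1 leu2Δ0 lys2Δ0 uraΔ0) and the 3-AT cells S288C, so that strain, medium and 3-AT changed together. The control had no replicate, and its table of 28 to 29 nt footprints gave the only positions along genes used here.

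The counts went against the strain label of the control, in genes that were chosen after their values were seen. The library labelled BY4742 for the control held 62 footprints on LYS2, the lysine synthesis gene that this genotype lacks, against 0 in each of the other 12 libraries. It held 0 on MET17, against 514 and 341 in the rich-medium monosome libraries. Genes specific to MATa cells were present in the control (MFA2 with 73 footprints and STE2 with 47, against 0 and 0 and against 1 and 0 in the rich-medium monosome libraries), whereas the MATα pheromone gene MF(ALPHA)1 had 0, against 1648 and 1189. Among the other libraries, URA3 had 35 and 21 counts in the rich-medium monosome libraries although their genotype lists a ura deletion (ura3Δ0 in the study's methods), and LYS2 and LEU2 were at 0 in all 6 libraries labelled S288C. Strain and mating type therefore cannot be told apart from the two-ribosome selection in any difference between the control and another library. Comparisons between positions within the control use that library alone.

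Translation of a coding sequence starts at its 5′ end, and a ribosome must pass every earlier codon before it reaches the distal ones. An mRNA that carries many ribosomes sediments far down a sucrose gradient, and a fraction of transcripts bound by a pair of ribosomes holds mostly short or sparsely translated mRNAs. In yeast, long coding sequences encode fused metabolic enzymes, coat and motor proteins, membrane transporters, polymerases and the large scaffold kinases.

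The distal positions with the most footprints lay in FAS1, ACC1, FAS2 and VMA1, and their surroundings in the R64 genome are given because they show which codons carried the tallest distal signals. Each is written 5′ to 3′ on the coding strand with the A-site codon in capitals. They are FAS1 codon 1978 (chrXI:106572-106631, plus strand), ACC1 codon 1486 (chrXIV:656890-656949, minus strand), FAS2 codon 1736 (chrXVI:113827-113886, plus strand), VMA1 codon 1070 (chrIV:129964-130002, plus strand), ACC1 codon 2223 (chrXIV:654679-654738, minus strand) and, as an example with proline in both sites, SEC31 codon 1098 (chrIV:110469-110528, plus strand).
FAS1 1978: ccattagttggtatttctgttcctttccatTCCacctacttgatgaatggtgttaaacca
ACC1 1486: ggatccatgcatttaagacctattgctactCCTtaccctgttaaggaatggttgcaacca
FAS2 1736: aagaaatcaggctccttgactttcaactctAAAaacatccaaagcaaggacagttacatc
VMA1 1070: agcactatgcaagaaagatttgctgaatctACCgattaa
ACC1 2223: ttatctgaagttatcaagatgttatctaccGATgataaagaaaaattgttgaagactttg
SEC31 1098: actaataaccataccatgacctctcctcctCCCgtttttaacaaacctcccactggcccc

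Signal at single codons was low. FAS1 codons 1978 (serine) and 1979 (threonine) held 27 footprints each, the most at any member, against 4517 at the highest position of the library. ACC1 codon 1486 (proline) held 26, FAS2 codon 1736 (lysine) 22, and VMA1 codon 1070 (threonine), the last sense codon but 1, and ACC1 codon 2223 (aspartate) 20 each. The 27 footprints were 2.86% of those on FAS1 (95% Wilson interval 1.98 to 4.13%), and the 26 were 5.92% of those on ACC1 (4.07 to 8.54%). All 6 stretches shown were unique among coding sequences over the 28 nt of a footprint. Most members were far lower, as 1362 positions (66.1%) held 1 footprint, 424 (20.6%) held 2, and the 15 positions with 10 or more held 7.77% of the distal footprints. The mean was 1.72 footprints at a distal position, against 5.39 at the other positions of the library. These intervals, and all others below, cover counting error only, since reads amplified by PCR are not independent molecules and the study's methods count reads of equal length, sequence and random tag once but do not tie this step to the deposited tables.

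Footprints often lay on adjacent codons. The run at FAS1 codons 1972 to 1980 held 92 footprints, which was 9.76% of those on the gene. The runs at ACC1 codons 1482 to 1487 and FAS2 codons 1732 to 1737 held 52 and 50 footprints, and the longest run, 11 codons from 1011 to 1021 of TSL1, held 41. In all, 241 runs of adjacent codons held 43.6% of the distal coding footprints.

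**Figure D1:**
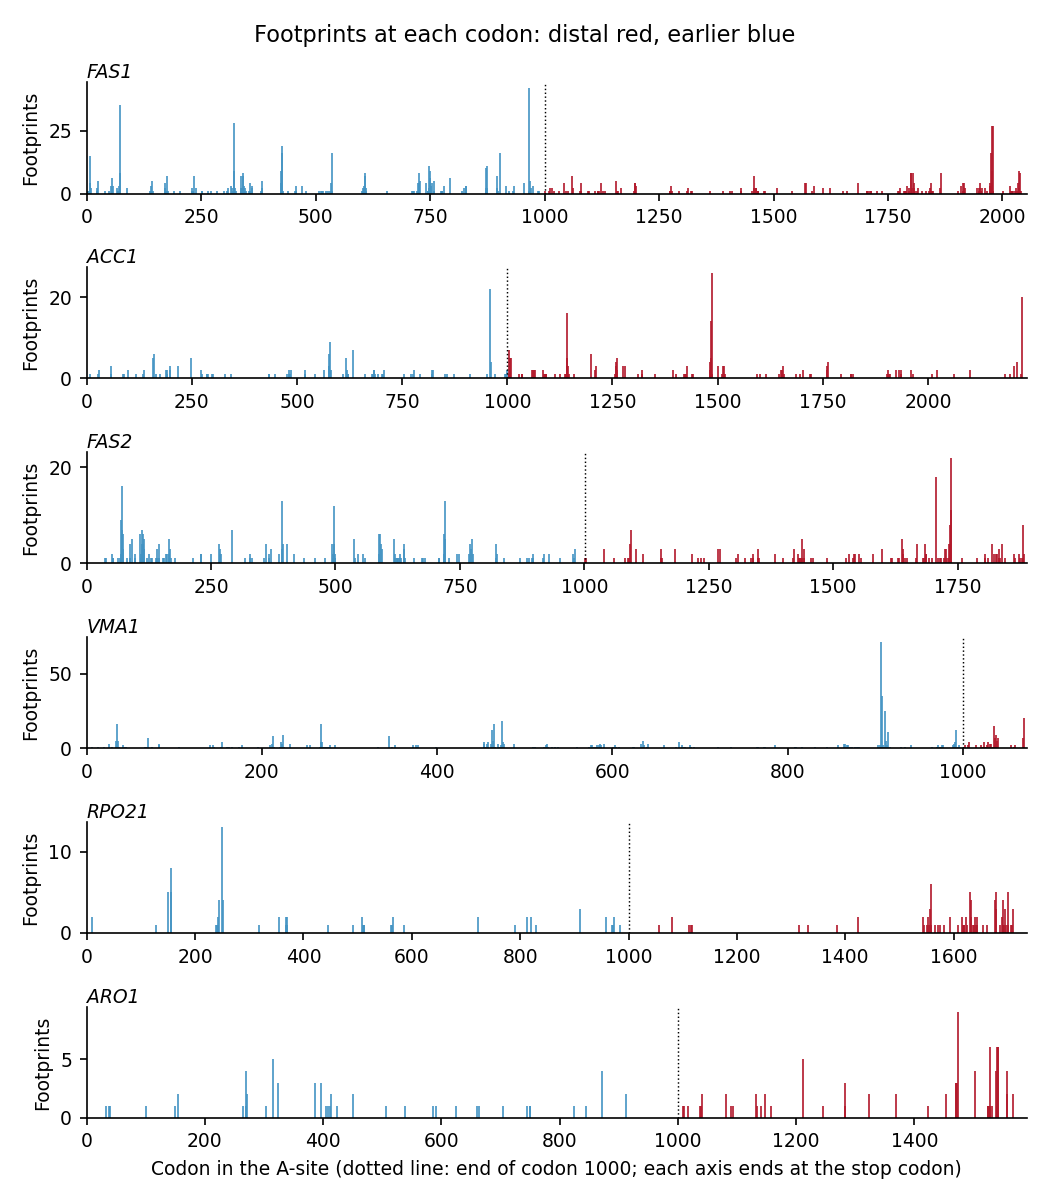
Footprints of the two-ribosome control (vertical axis, counts) at each A-site codon (horizontal axis, codon number) of the 6 genes with the most distal footprints, with distal codons in red, earlier codons in blue and a dotted line at the end of codon 1000. The distal signal of FAS1 was tallest at codons 1978 and 1979 (27 each), and that of RPO21 lay near the end of the gene, where 77 of its 100 distal footprints fell in the heptad repeats.

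A few genes held much of the distal signal. Of 522 coding sequences longer than 1000 codons in the R64 annotation, 46 of them from Ty elements, 297 had a distal footprint, 142 had earlier footprints only and 83 had none. The median gene with a distal footprint had 4 of them, 60 genes had 1, and 66 had 10 or more. FAS1, ACC1 and FAS2 held 25.2% of the distal coding footprints, and 15 genes held at least 50%. FAS1 lies at chrXI:100671-106826, ACC1 at chrXIV:654673-661374 and FAS2 at chrXVI:108652-114315, each with 1 coding exon, so that all their distal positions are exonic. The products make fatty acids: Acc1 forms malonyl-CoA, and Fas1 and Fas2 are the subunits of the synthase that uses it.

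The 12 genes with the most distal footprints were led by this lipid group. FAS1 had 369 distal and 574 earlier footprints, ACC1 264 and 175, and FAS2 254 and 375. VMA1, which encodes the catalytic subunit of the vacuolar proton pump together with a self-splicing intein, had 109 distal footprints on only 72 distal codons and 552 earlier ones. RPO21, the largest subunit of RNA polymerase II, had 100 distal and 86 earlier footprints. ARO1, a fused enzyme of aromatic amino acid synthesis, had 99 and 57, and SEC31, of the outer coat of COPII vesicles, 96 and 130. The clathrin heavy chain gene CHC1 had 76 and 183. GCN1, whose product binds ribosomes and activates the kinase Gcn2, had 68 and 35, the trehalose synthase subunit gene TSL1 68 and 209, the cytoplasmic exoribonuclease gene XRN1 68 and 43, and the pyrimidine synthesis gene URA2 64 and 72.

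The 142 long genes with earlier footprints only had few footprints at all (median 5, highest 33). The genes with distal footprints had a median of 342 distal codons, against 116.5 in these. At their earlier density, these 142 genes would have had 165.84 distal footprints together, and only 13 of them would have had more than 3. The highest such expected numbers, picked after the values were seen, were 12.8 for BRR2, the spliceosomal helicase, and 9.91 for RSF2. Uniqueness of sequence differed little between the stretches outside Ty elements, where 94.0% of distal and 94.8% of earlier codons started a 28-nt footprint that occurs once in the coding sequences.

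To compare distal codons with earlier positions of the same genes, footprints were divided by codons. Pooled over the 522 long genes, the density was 1.62 footprints per 100 distal codons, against 2.07 per 100 codons at codons 1 to 1000, a ratio of 0.782 (95% interval 0.753 to 0.812). Along the genes, density was highest near the start and had no steady course beyond. Codons 1 to 50 held 547 footprints on 26100 codons, and density was 4.39 per 100 at codons 51 to 100, 2.80 at 101 to 200, 2.05 in the 300 codons up to codon 500, 1.59 in the 250 up to codon 750 and 1.79 at 751 to 1000. It then was 1.66 at codons 1001 to 1250, 1.25 at 1251 to 1500 (274 genes), 2.11 at 1501 to 2000 (169 genes) and 1.30 beyond 2000 (37 genes). Against the 500 codons just before the limit alone, the pooled ratio was 0.954, and without the first 100 codons it was 0.835. The pooled ratio was also moved by single genes and was 0.669 without FAS1, FAS2, ACC1 and VMA1. Just inside the limit, codons 1001 to 1010 held 134 footprints (2.59 per 100 codons), and just outside it, codons 991 to 1000 held 97 (1.86 per 100).

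**Figure D2:**
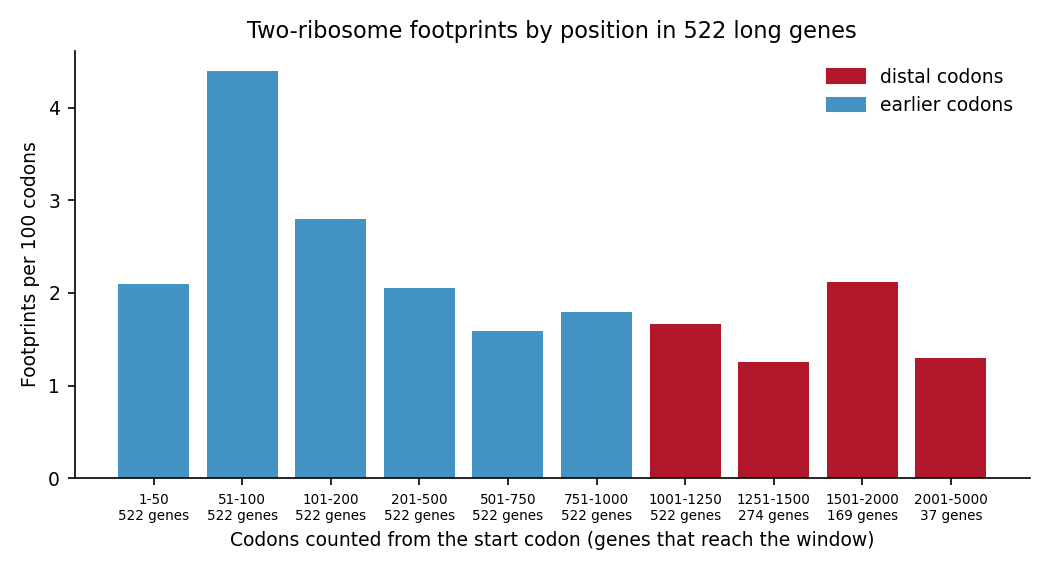
Footprints per 100 codons (vertical axis) in windows of codons along the long genes (horizontal axis, with the number of genes that reach each window), distal windows in red and earlier windows in blue. Codons 51 to 100 stood highest at 4.39, and the 4 distal windows lay between 1.25 and 2.11, against 1.59 to 4.39 in the earlier windows.

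Gene by gene, distal codons were less dense than codons 1 to 1000 more often than the reverse. Over the 140 long genes with at least 20 footprints, the median ratio was 0.768 (quartiles 0.452 and 1.36). Distal density was at least 2-fold higher in 26 of them (18.6%) and at least 2-fold lower in 44 (31.4%). The counting interval lay above 1 in 24, below 1 in 31 and included 1 in 85. Against the last 500 of the earlier codons alone, the median was nearer 1, as given below. The highest value, 18.9 in STE23, rested on 9 footprints at 28 distal codons. Among the 48 genes with at least 50 footprints and 50 distal codons, the interval lay above 1 in 15, below 1 in 18 and included 1 in 15. Spearman's rho across 491 long genes, which are not independent replicates and share 1 library, was 0.65 between distal and earlier density. With each coding sequence split at its midpoint, the median ratio of density past it to density before it was 0.714 in the 140 long genes, against 0.833 in 404 genes of 500 to 1000 codons, with quartile ranges that overlapped (0.435 to 1.21 in the long genes).

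The highest ratios of distal to earlier density, among genes with at least 50 footprints and 50 distal codons, were in genes of several kinds. TSL1 had 68.7 footprints per 100 distal codons, against 20.9 per 100 earlier codons, a ratio of 3.29 (95% interval 2.50 to 4.32). ILS1, the isoleucyl-tRNA synthetase gene, had a ratio of 3.08 (2.22 to 4.29), XRN1 of 2.99 (2.05 to 4.37), ARO1 of 2.95 (2.13 to 4.08) and COP1, of the COPI coat, of 2.77 (1.94 to 3.95). The value of ILS1 rested on few codons and was 1.33 without its 3 highest positions. That of SEC31 was 2.70 with all positions and 1.79 without 3. Those of TSL1 (3.89) and XRN1 (3.73) were higher without 3, but in TSL1 these 3 were all earlier codons. With each position counted once, the ratios were 2.48 in TSL1, 2.59 in XRN1, 2.02 in ILS1 and 1.85 in SEC31. VMA1 had the most footprints per distal codon of the named genes, 151 per 100, against 55.2 per 100 earlier codons (ratio 2.74, 2.23 to 3.37). RPO21 had a ratio of 1.58 (1.19 to 2.11) and ACC1 of 1.22 (1.01 to 1.48).

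The lowest ratios were in PDR5, NUP188, KAP123, FKS1 and ADE6. PDR5, a drug efflux pump of the plasma membrane, had 3 distal footprints on 512 codons, against 81 earlier ones, a ratio of 0.0723 (95% interval 0.0242 to 0.217). NUP188, of the nuclear pore, had a ratio of 0.173 (0.0759 to 0.392), the import factor gene KAP123 of 0.195 (0.0528 to 0.720), the glucan synthase gene FKS1 of 0.290 (0.168 to 0.498) and the purine synthesis gene ADE6 of 0.348 (0.242 to 0.502). FAS1 (0.611) and FAS2 (0.763) were also less dense at distal codons, with intervals of 0.536 to 0.696 and 0.651 to 0.894. Their earlier codons held 57.4 and 37.5 footprints per 100 codons.

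**Figure D3:**
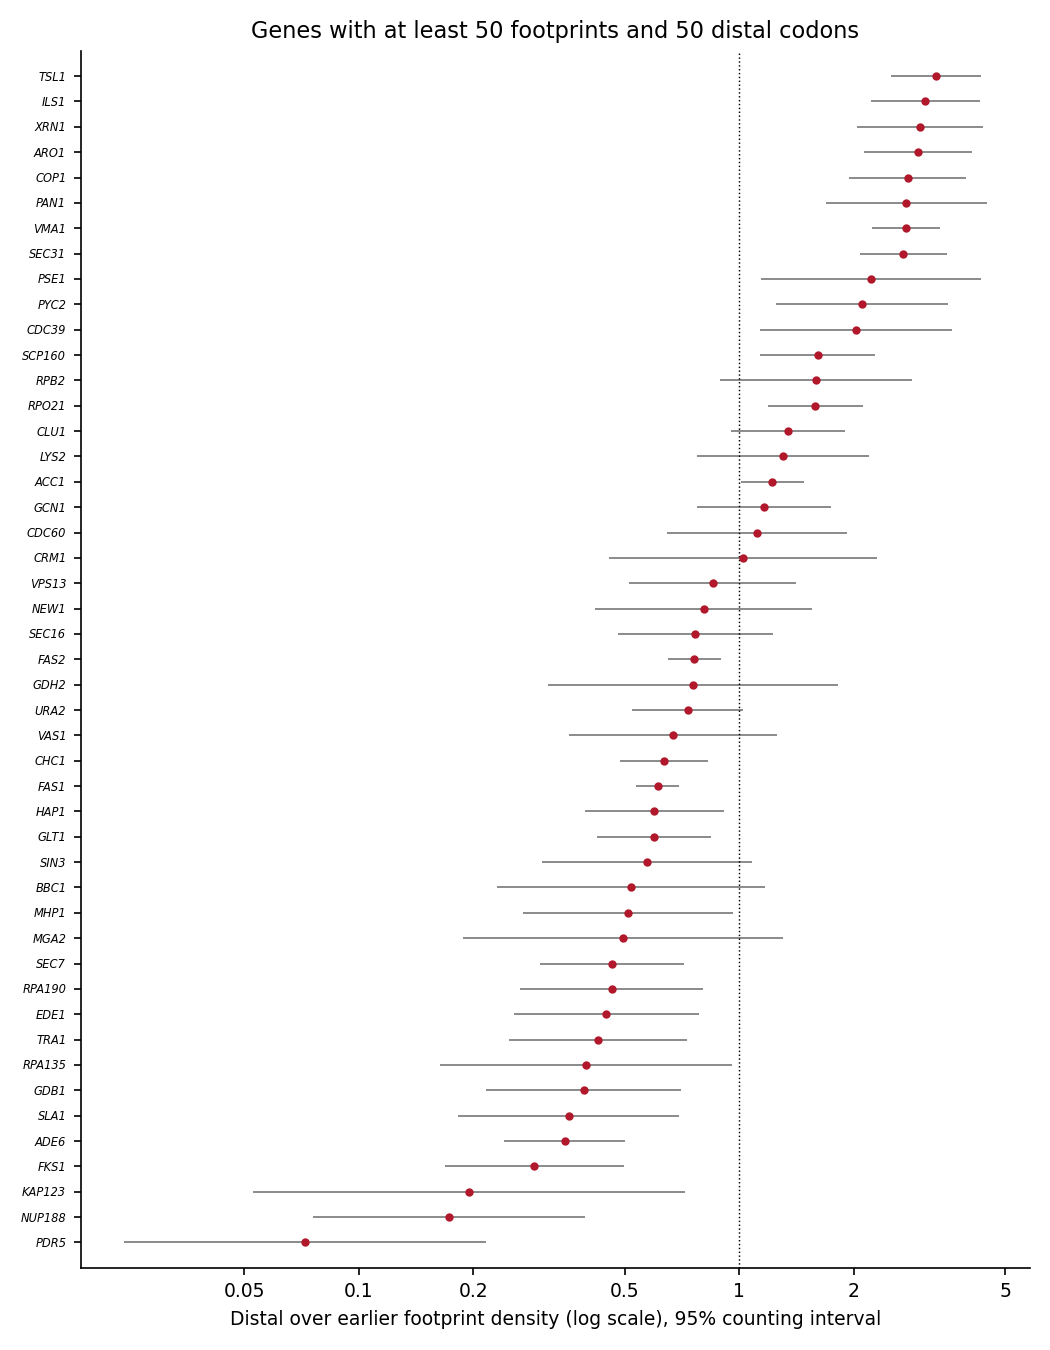
Ratio of distal to earlier footprint density (horizontal axis, log scale) for 47 of the 48 genes with at least 50 footprints and 50 distal codons, with bars for the 95% counting interval and a dotted line at 1. Values ran between 0.0723 in PDR5 and 3.29 in TSL1, and the bars of 15 genes crossed 1.

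The distal footprints of RPO21 lay mostly in its carboxy-terminal domain, a tail of heptad repeats rich in serine and proline. Exact repeats ran over codons 1556 to 1702, a stretch located after the profile had been seen. These 147 of 734 distal codons held 77 of the 100 distal footprints, or 52.4 per 100 codons, against 3.24 per 100 in the 555 distal codons before them. Of the distal codons of RPO21, 99.7% started a unique 28-nt stretch.

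The farthest footprints lay deep in the longest genes. REA1 (MDN1, midasin), an ATPase of ribosome assembly with 4910 codons, held its last footprint at codon 4855, with 22 distal footprints and 22 earlier ones. TRA1, a large subunit of histone acetyltransferase complexes, reached codon 3735 with 28 and 24, and VPS13, a lipid transfer protein of membrane contact sites, reached codon 3141 with 42 and 23. Per codon, distal density was 0.256 of the earlier density in REA1 (0.143 to 0.458), 0.425 in TRA1 (0.248 to 0.728) and 0.851 in VPS13 (0.515 to 1.41). In LYS2, 21 footprints were distal and 41 earlier (ratio 1.30, interval 0.775 to 2.19). At the very end of long genes, the last 10 codons before the stop held 150 footprints (2.93 per 100 codons), and stop codons held 13 in 10 genes (2.49 per 100).

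Some residues were under the ribosome more often than the codon content of the genes gave. For each residue, footprints were compared with the number expected if those of a gene's distal stretch fell evenly over its codons. Proline stood highest, at 2.37 times the expected number in the A-site (398 footprints) and 2.82 times in the P-site (475 footprints) of distal codons, against 2.77 and 2.93 times at earlier codons of the same genes. Serine was at 1.55 in the A-site of distal codons, against 1.40 at earlier ones, and threonine at 1.52, against 1.18. Glycine (0.430, against 0.354) and tryptophan (0.358, against 0.396) were low in both stretches. Counting each position once gave 2.25 for proline and 1.31 for threonine at distal codons. Without the 3 highest positions of each gene proline was at 2.03. These are descriptions of 1 library, and the part of the bases at fragment ends was not tested.

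**Figure D4:**
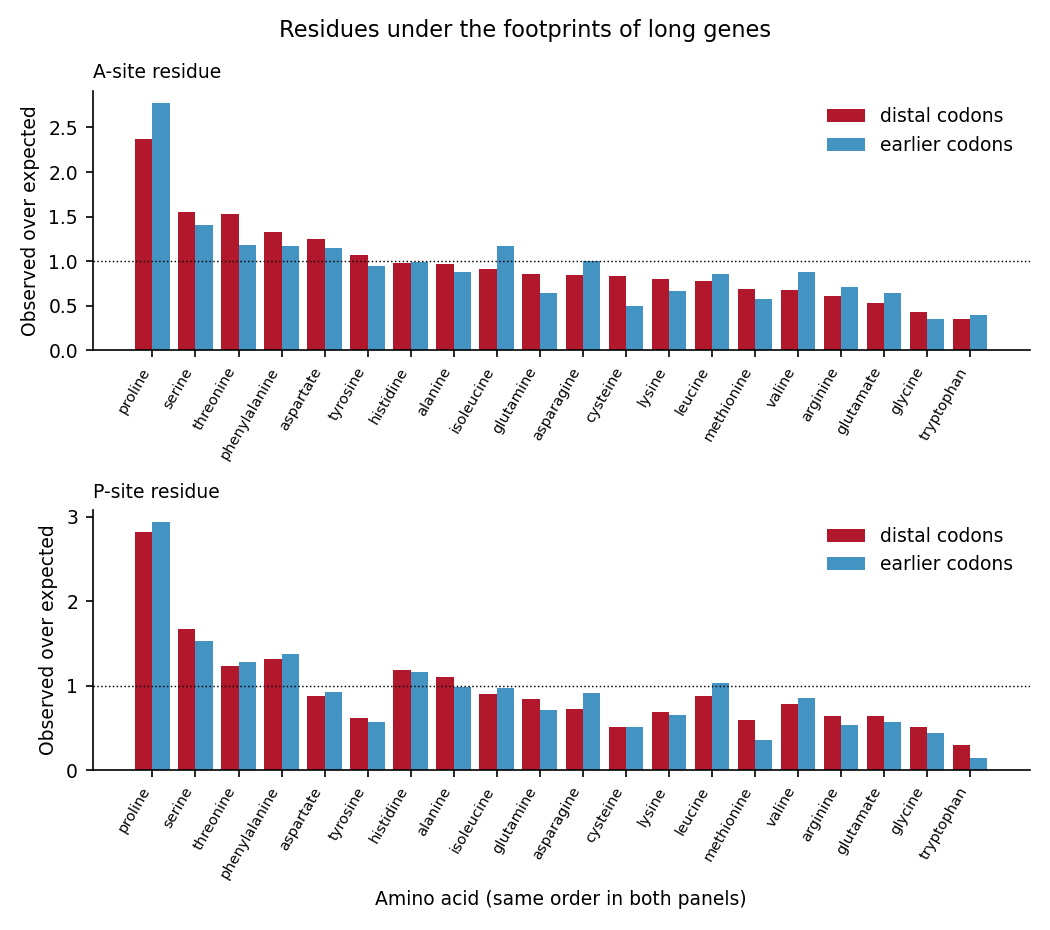
Observed over expected footprints (vertical axis, 1 at the dotted line) for each amino acid (horizontal axis) in the A-site (upper panel) and P-site (lower panel), with distal codons as red bars and earlier codons of the long genes as blue bars. Proline stood highest in both stretches, at 2.37 (distal) and 2.77 (earlier) in the A-site.

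By function, 226 of the long genes were grouped in 18 lists that together held 79.7% of the distal coding footprints. The lists give counts and pooled densities, in which the genes with the most footprints and the longest genes weigh most, so that the value without the gene with the most footprints is given where it moved by over 1.5 times or to the other side of 1. These settings were chosen after the values were seen.

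Fatty acid and lipid synthesis held 26.3% of the distal coding footprints (925 in 10 of 11 genes), of which FAS1 gave 39.9%. Its pooled ratio of distal to earlier density was 1.15, but the median over its 6 genes with at least 20 footprints was 0.899, and the distal footprints were 0.776 of the number expected from each gene's own earlier density. Fused enzymes of amino acid, nucleotide and carbohydrate metabolism held 413 in 14 of 15 genes (pooled ratio 0.915, and 1.10 without ADE6). Vesicle traffic and sorting, with SEC31, CHC1, COP1 and VPS13, held 357 in 14 of 15 (pooled ratio 1.02, median 0.809 over 8 genes). Translation and mRNA decay factors held 229 in 10 of 13, at a pooled ratio of 0.408. Here YEF3, elongation factor EF-3, had 1056 of the 1269 earlier footprints and only 45 distal codons, and without it the ratio was 1.97.

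RNA polymerase large subunits held 143 distal footprints in 6 of 6 genes (pooled ratio 1.32), of which RPO21 gave 69.9%, and the ratio was 0.697 without it. Motors and cytoskeleton held 139 in 15 of 16 genes, at a pooled ratio of 0.686, against a median of 1.80 over 6 genes and a pooled ratio of 1.03 without SLA1. Signalling by TOR, Ras and kinases held 117 in 15 of 19 (0.784) and chromatin and transcription 99 in 15 of 22 (0.626). Nuclear pore and karyopherin genes held 86 in 16 of 20, at a pooled ratio of 0.648 and a median of 1.02 over 11 genes. In this list NUP188 and KAP123 were low, whereas the importin gene PSE1 had a ratio of 2.22 (1.14 to 4.33). Ribosome biogenesis factors held 67 in 10 of 11 (0.437). Synthetases of aminoacyl-tRNA held 67 in 3 of 3 genes at a pooled ratio of 1.59, of which ILS1 gave 64.2%, and the ratio was 0.875 without it. The ubiquitin pathway held 66 in 7 of 8 (0.377, and 0.875 without UBA1, the ubiquitin-activating enzyme). DNA replication and repair held 34 in 10 of 22 (0.915). The smallest lists were cell wall and flocculation proteins, with 12 in 2 of 8, and splicing, with 4 in 1 of 4 (pooled ratio 0.197, and 0.408 without BRR2).

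Among the lists of membrane proteins, the 16 ABC transporter genes held 23 distal footprints in 8 genes, against 146 earlier ones (ratio 0.353). PDR5 alone gave 3 of the distal and 81 of the earlier ones, and without it the ratio was 0.697 (95% interval 0.422 to 1.15), near the 0.782 pooled over all long genes. SNQ2, another drug pump, had 8 distal and 5 earlier footprints. The 13 P-type ATPase genes, which encode ion pumps and lipid flippases, held 2 distal footprints, on DRS2 and DNF2, against 44 earlier ones (0.159, interval 0.0386 to 0.657). Glucan and chitin synthase genes held 24 in 2 of 5, against 119 earlier ones (0.353), all on FKS1 (16) and its paralog GSC2 (8).

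Long genes took up a smaller part of the control than of any other rich-medium library. Coding sequences longer than 1000 codons had 3.57% of the counts (95% Wilson interval 3.51 to 3.63%) in the control, against 6.60 and 6.63% in disome-seq, 9.51 and 9.48% in monosome-seq and 8.36 and 7.68% in mRNA-seq. In 3-AT, they had 3.48 and 4.39% in disome-seq, 6.41 and 6.95% in monosome-seq and 7.27 and 7.24% in mRNA-seq. The control share was 0.376 of the monosome mean. Without the 10 genes with the most footprints in the control the ratio was 0.526. Per gene, with counts scaled to the total of each table (RPM), the median ratio of the control to the monosome mean was 0.354 for genes over 1000 codons, against 0.416 at 751 to 1000 codons, 0.401 above 500 up to 750, 0.521 at 251 to 500 and 0.777 at 1 to 250. The tables hold different fragment lengths, and with 1 control library no test was possible.

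**Figure D5:**
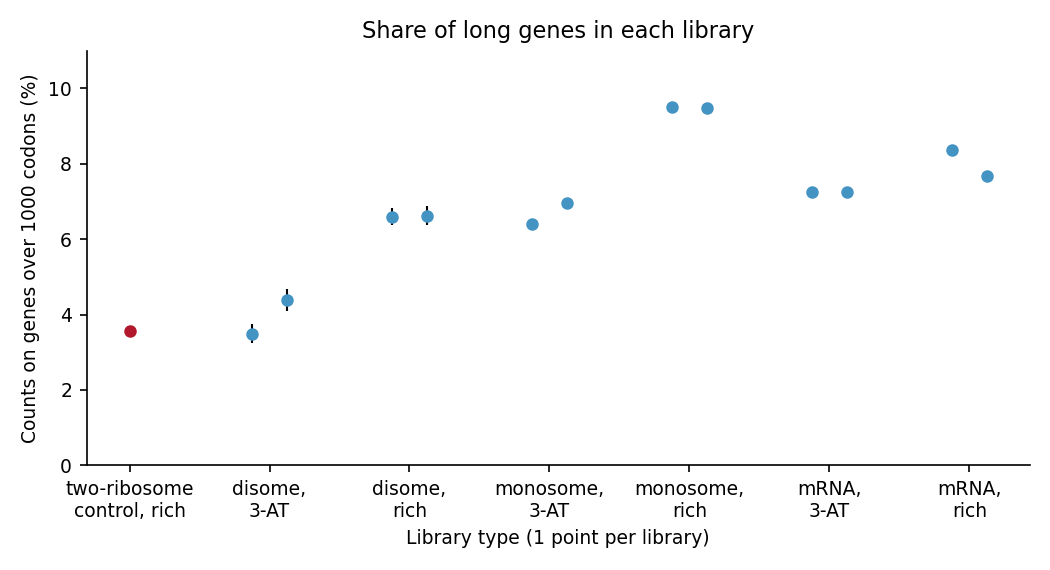
Share of counts on coding sequences over 1000 codons (vertical axis, percent) in each library (1 point each, bars for the 95% Wilson interval, some smaller than the point), with the control in red. The control stood at 3.57%, below the 6.60 to 9.51% of the 6 other rich-medium libraries.

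Among the 12 leading genes, 11 were lower in the control than in both rich-medium monosome libraries. Long genes at large were lower too, with a median ratio of the control to the monosome mean of 0.354 over 419 genes. The count of 11 therefore does not set the leading genes apart from other long genes. FAS1 stood at 2353 RPM in the control, against 2970 and 3093 RPM in monosome-seq, and ACC1 at 1095 RPM, against 1503 and 1527 RPM. TSL1 was the exception, with 690 RPM in the control, against 104 and 107 RPM in monosome-seq, a ratio of 6.55. PDR5 went the other way, with 209 RPM in the control, against 2753 and 2681 RPM, a ratio of 0.0770. Strain and selection cannot be told apart in these gene totals.

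Another readout of the same genes came from the replicated libraries. Counts per gene were fitted with edgeR's quasi-likelihood test with TMM scaling, and p-values were adjusted over all genes by the Benjamini-Hochberg method, with calls at 0.05. The replicates are biological by the study's methods.

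Genes with distal footprints more often had more monosome footprints per mRNA than genes at large had. Of 293 such genes tested in monosome-seq against mRNA-seq in the rich medium, 154 were called higher (52.6%) and 34 lower (11.6%), beside 25.9% higher and 25.8% lower among all 5099 genes. Their median log2 difference was 0.38, against -0.06 over all genes. Of all long genes, with or without distal footprints, 182 of 457 were called higher and 102 lower, with a median of 0.13. Having a distal footprint depends on how many footprints a gene has, so these shares are a description. The balance of calls depended on the scaling. With library totals alone, which moved the median of all genes to -0.64, 71 were higher and 126 lower, with their median at -0.21.

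The largest rises were in GLT1, CHC1 and FAS1. GLT1, glutamate synthase, had 1296 ± 49.7 TMM-scaled CPM in monosome-seq and 230 ± 13.7 in mRNA-seq (SD, n = 2 each), a log2 difference of 2.49 ± 0.09 (SE, edgeR adjusted p = 9.27e-174). CHC1 differed by 2.34 ± 0.09 (edgeR adjusted p = 9.19e-146) and FAS1 by 2.25 ± 0.08 (edgeR adjusted p = 5.39e-175). Both groups of replicates stood clear of each other in these genes. The largest falls were in STE6, with 0 and 1 counts in monosome-seq and 31 and 44 in mRNA-seq (ratio of counts per total 0.0482, counting interval 0.00121 to 0.277, edgeR adjusted p = 0.000169, against 0.0536 with DESeq2), in RGC1, a regulator of the glycerol channel (-1.54 ± 0.24, edgeR adjusted p = 9.82e-10), and in TDA9, a zinc finger protein (-1.35 ± 0.17, edgeR adjusted p = 2.33e-14). STE6 exports the pheromone of MATa cells and had 9 footprints in the control. It passed the filter on low counts through mRNA-seq alone.

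The lists were counted over all long members tested, also those without distal footprints, beside 25.9% higher and 25.8% lower among all genes. By list, all 6 RNA polymerase subunit genes, 11 of 14 fused metabolic enzymes, 8 of 11 ribosome biogenesis factors and 11 of 20 nuclear pore and karyopherin genes were called higher in monosome-seq than in mRNA-seq, with none lower. With library totals alone these were 3 of 6, 6 of 14, 7 of 11 and 4 of 20, with 0, 1, 3 and 11 called lower. Of the kinase and Ras signalling list, 5 of 19 were higher and 7 lower, and 0 and 14 with library totals alone.

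Few genes with distal footprints differed between disome-seq and monosome-seq in the rich medium. Of 262 tested, 4 were called higher and 30 lower, beside 8.97% and 8.51% of 3089 genes, while 72 had an unadjusted p under 0.05. The median log2 difference was -0.62, against -0.36 over all genes, and -0.58 with the 11 genes at 0 in both disome-seq libraries set to a floor of 3 counts. All long genes, with or without distal footprints, were similar, with 6 of 361 higher, 36 lower and a median of -0.63. The lower median was therefore not particular to genes with distal footprints. Disome-seq held only 47391 and 34707 counts. The counts depended on each library, with 0 to 2 higher and 5 to 18 lower when any 1 of the 4 libraries was left out, where leaving out a monosome library also cut the genes tested to 918 or 927. Library totals alone gave 1 higher and 67 lower, and DESeq2 6 and 11.

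The named rises were AXL1, an endoprotease that matures the MATa pheromone (log2 difference 1.95 ± 0.63, edgeR adjusted p = 0.0200), the RNA polymerase III subunit gene RET1 (1.14 ± 0.41, edgeR adjusted p = 0.0376) and PDR5. PDR5 had 4324 ± 841 TMM-scaled CPM in disome-seq and 2546 ± 69.7 in monosome-seq (SD, n = 2 each), a log2 difference of 0.76 ± 0.20 (edgeR adjusted p = 0.00354). The falls were in genes with no disome-seq count, which passed the filter on low counts through monosome-seq alone. GAL11, of the Mediator complex, had 0 and 0, against 116 and 69 in monosome-seq, and was at least 3.60-fold lower with 3 counts over both libraries as the floor (edgeR adjusted p = 0.00366). CDC25, the exchange factor of Ras, was at least 2.37-fold lower (edgeR adjusted p = 0.0236) and SPO14, a phospholipase D, at least 2.08-fold lower (edgeR adjusted p = 0.0369). Each of these 6 calls was lost without at least 1 library. With library totals alone RET1 (edgeR adjusted p = 0.0994) and PDR5 (edgeR adjusted p = 0.0825) were lost. With the replicate number as a block AXL1, RET1, CDC25 and SPO14 were lost (edgeR adjusted p between 0.0548 and 0.0838). All 4 long glucan and chitin synthase genes tested (CHS1, CHS3, FKS1 and GSC2) were lower in disome-seq, beside 8.51% of all genes, and also with library totals alone. Their median log2 difference was -3.12, against -1.36 ± 0.24 in FKS1, which had 24 and 28 disome-seq counts. CHS1 and CHS3 had 0 distal footprints. In no other list were all tested genes called lower.

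Between media, more genes with distal footprints were lower than higher in the 3-AT monosome libraries. Of 284 tested in monosome-seq, 38 were called higher (13.4%) and 159 lower (56.0%) in 3-AT, beside 33.8% higher and 31.7% lower among 4169 genes. The median log2 difference was -0.73, against 0.03 over all genes. All long genes, with or without distal footprints, were similar, with 53 of 401 higher, 203 lower and a median of -0.65. The fall was therefore not particular to genes with distal footprints, which were also picked by their footprints in a rich-medium library. With library totals alone 50 were higher and 121 lower. Strain, medium and 3-AT cannot be told apart here.

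Among the largest rises named were AMS1 and GCV2. The vacuolar mannosidase gene AMS1 had 527 ± 91.0 TMM-scaled CPM in 3-AT and 50.0 ± 7.25 in the rich medium (SD, n = 2 each) and rose by 3.40 ± 0.19 on the log2 scale (edgeR adjusted p = 2.37e-16), and GCV2, of glycine breakdown, by 2.86 ± 0.14 (edgeR adjusted p = 6.76e-18). The largest falls were in DUR12 (DUR1,2), urea amidolyase, with 1 and 2 counts in 3-AT and 84 and 54 in the rich medium (ratio 0.0614, counting interval 0.0125 to 0.183, edgeR adjusted p = 7.49e-09), in the helicase gene SGS1, with 0 and 1, against 24 and 14 (ratio 0.0743, interval 0.00183 to 0.440, edgeR adjusted p = 0.000242), and in PDR12, an exporter of weak acids (-3.34 ± 0.34, edgeR adjusted p = 3.59e-10). PDR12 had 5 and 4 counts in 3-AT, against 118 and 96. DUR12, SGS1 and PDR12 passed the filter on low counts through the rich-medium libraries alone.

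List counts cover all long members tested, also those without distal footprints, and stand beside 33.8% higher and 31.7% lower among all genes. Of the fused metabolic enzymes, 10 of 14 were higher and 3 (GLT1, URA2 and DUR12) lower in 3-AT. ARO1 and TSL1 were among those that rose, with log2 differences of 1.13 ± 0.11 and 1.66 ± 0.18. In the lipid list 8 of 11 were lower and 1 (OSH2) was higher, with FAS1 at -1.95, FAS2 at -1.71 and ACC1 at -1.26. The 6 polymerase subunits, 10 of 11 ribosome biogenesis factors, 13 of 15 motor and cytoskeleton genes and 8 of 10 ABC transporters were lower, with none higher. With library totals alone these were 6, 8, 11 and 7 lower, with 0, 0, 1 and 1 higher.

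Disome-seq, compared between media in the same way after the data had been seen, allowed a test of only 32 of the 297 genes. Of these, 5 were higher and 18 lower in 3-AT, beside 37.2% and 43.8% of 624 genes. FAS1 had 0 and 1 counts in 3-AT and 143 and 75 in the rich medium (ratio 0.00943, counting interval 0.000238 to 0.0531, edgeR adjusted p = 1.26e-18), and ACC1 1 and 1, against 77 and 48 (ratio 0.0329, interval 0.00394 to 0.121, edgeR adjusted p = 1.04e-11). PDR5 had 1 and 6 counts, against 153 and 156, and differed by -5.00 ± 0.52 (edgeR adjusted p = 1.26e-18). FAS1, ACC1 and PDR5 passed the filter on low counts through the rich-medium libraries alone. GCV2 rose by 3.32 ± 0.66 (edgeR adjusted p = 1.57e-06) and HAP1, the heme-responsive activator, by 2.48 ± 0.55 (edgeR adjusted p = 6.96e-05). GCV2 had 12 and 27 counts in 3-AT, against 3 and 2, and HAP1 had 12 and 10, against 3 and 2. Both passed the filter through the 3-AT libraries alone. The call of HAP1 was lost without replicate 1 or replicate 2 of the rich-medium libraries. With library totals alone 10 of the 32 genes were higher and 15 lower.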

How the data were processed

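The authors kept a 3-nt random tag of each read, trimmed adaptors, removed rRNA reads, aligned the rest to R64 coding sequences and discarded multiple alignments. The submitters' processing notes name cutadapt 1.16, Bowtie 1.2.2 and TopHat2 2.1.1. They deposited counts of reads per gene and, for the control, counts per A-site position, for 1 length class each, without normalization. Totals ran between 18790 and 47391 in disome-seq, 230583 and 800994 in monosome-seq and 544499 and 2836320 in mRNA-seq. These are not whole library depths. Genes that a table did not list were set to 0.

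Systematic names were matched to the RefSeq R64 annotation, which gave coding lengths, sequences and coordinates. Shares and density ratios carry 95% Wilson intervals. Pooled ratios of the lists carry 95% intervals from a normal approximation on the log scale. Genes named in the edgeR comparisons with 1 to 3 counts in a group carry exact intervals. The 4 libraries of a comparison were fitted with edgeR 4.0.16 in R 4.3.3, with its filter on low counts by group. The fit was tested on simulated data. Alternatives included DESeq2 1.42.0, other scaling, no filter, a replicate block and leaving out each replicate. Python 3.11.15, pandas 2.3.3, scipy 1.17.1 and matplotlib 3.10.9 were used.

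Named genes were the 12 with the most distal footprints, the 5 highest and 5 lowest ratios, those of the 6 highest positions and the 3 farthest footprints, LYS2, members of the lists, and, per comparison, the 3 called genes with distal footprints that rose most and the 3 that fell most, with groups that did not overlap. A gene that this rule also named is not reported here. The members and lists were chosen with earlier results of these data known. SMC2 was taken out of the splicing list, where it had been entered by mistake.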

Additional observations from a re-analysis of the deposited data

How the results depend on the processing

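The share of distal footprints was 2.71% with each position counted once. The pooled ratio of distal to earlier density was 0.954 against the last 500 of the earlier codons, 0.822 with each position once, 0.889 without the 3 highest positions of each gene, 0.848 over unique stretches, 0.739 without the 10 genes with the most footprints and 0.847 in genes of at least 1200 codons. Settings added after the data were seen gave 0.856 from each gene's own earlier density, 0.835 without the first 100 codons and 0.669 without FAS1, FAS2, ACC1 and VMA1. It was below 1 in all of these. The median ratio over genes was 0.990 against the last 500 of the earlier codons. The share of long genes relative to monosome-seq was 0.526 without the 10 leading genes.

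For monosome-seq against mRNA-seq, library totals alone gave 71 members higher and 126 lower (427 and 3142 over all genes, against 1323 and 1314), and DESeq2 gave 14 lower (999 and 559 over all genes). For disome-seq against monosome-seq, 1 was higher and 67 lower with library totals alone (217 and 530 over all genes, against 277 and 263), 1 and 48 without the filter, 11 lower with DESeq2 (336 and 162 over all genes), and 0 to 2 higher and 5 to 18 lower without single libraries. In 3-AT against the rich medium, DESeq2 gave 24 members higher in monosome-seq, where library totals gave 1696 higher and 1023 lower over all genes (against 1411 and 1322). In disome-seq, library totals gave 10 higher (290 and 220 over all genes, against 232 and 273), no filter 46 lower, and leaving out single libraries 3 to 9 higher.

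No shared deviation of same-numbered samples was seen (correlations between -0.02 and 0.03), and the main fit did not pair them. With few counts per gene, such correlations cannot show that same-numbered samples were unrelated. With a replicate block, disome-seq against monosome-seq had 1 member higher and 17 lower. The block moved no other count of members by over 1.5 times. Of 206 alternative values of the 24 named gene results, 25 missed the threshold and 0 turned direction.

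The control had 1 library, and disome-seq few counts, so a missing call there does not show that levels were alike.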
